A study of Rattus norvegicus with 36 samples.

Results

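The miR-344 family is a group of related miRNAs, followed here across small RNA libraries of rat serum and of 2 brain regions, the prefrontal cortex (PFC) and the nucleus accumbens (NAc), a reward region of the ventral forebrain. A list of 5 miR-344 names was looked up by name in the table of 861 miRNAs. The 4 names with a row, rno-miR-344a-3p, rno-miR-344a-5p, rno-miR-344b-1-3p and rno-miR-344b-5p, are the members described here (the prefix rno, for rat, is left out below), and the listed name rno-miR-344b-2-3p matched no row and is not analysed here. Another 3 rows carry the family name, miR-344b-3p, miR-344g and miR-344i. They lie outside the list and are given beside the members as relatives. The members were chosen by name from a list drawn up with earlier results of these data known, the levels by tissue among them, and by having a row of counts. The levels by tissue are therefore given as a description, with no test.

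All animals were adult male Sprague-Dawley rats, aged 8 weeks on arrival, that had 1 week to acclimate and 1 week to recover from placement of a jugular vein catheter. The heroin groups self-administered heroin at 0.075 mg/kg per infusion for 6 hours a day over 10 daily sessions, and the saline groups had the same surgery and self-administered saline for 10 days. Tissue was taken within 60 min of the last session, brain RNA as total RNA and serum RNA with a kit for exosomal RNA. Each of the 6 groups of tissue and treatment had 6 libraries, and the PFC libraries held 3419438 to 20773798 counts, the NAc libraries 5894542 to 24776772 and the serum libraries 157415 to 2777850. PFC saline libraries 8 and 12 stood apart from the rest: their mean correlation with the other PFC libraries was 0.89 and 0.908, against 0.951 to 0.969 for the other 10. The labels speak of biological replicates and do not tie a library's number to an animal. The neuronal markers miR-124-3p and miR-128-3p summed to 51230 to 246300 CPM (counts divided by the library's total, times 1e+06) in the PFC, where the highest value was that of saline library 12 and the others ended at 76760 CPM. They summed to 17340 to 47040 CPM in the NAc and 10750 to 46820 CPM in serum, so these ranges of the sums overlapped. The sums were mostly miR-128-3p, at 10740 to 46800 CPM in serum. miR-124-3p alone did not overlap, with 0 to 23.3 CPM in serum against 367.8 to 1335 in the NAc and 457.5 to 3367 in the PFC. The red cell markers miR-451-5p, miR-486 and miR-144-3p summed to 27710 to 84690 CPM in serum, against at most 705.6 CPM in the brain.

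A miRNA is cut from a hairpin RNA whose 5p and 3p arms can both give a mature strand, and one of them is usually kept in an Argonaute protein while the other is lost. The mature strand recognises messenger RNAs mainly through its seed, the bases 2 to 8. The miR-344 family is annotated in rat and mouse, and in mouse embryos miR-344-3p has been described in the nervous system. In rat macrophages, miR-344b-1-3p has been reported to target the innate immune receptor Tlr2. RefSeq places all 7 hairpin genes of the rat family on the minus strand of chromosome 1 (build GRCr8), with no protein-coding gene between them. In order along the chromosome they are Mir344b-2, Mir344b-1, Mir344b-3, Mir344a-2, Mir344-1 (also named Mir344a-1), Mir344g and Mir344i. Among the named protein-coding genes nearest to the block are Snrpn on one side and Ndn, Magel2, Mkrn3 and Peg12 on the other, which are imprinted genes of the region whose human counterpart is lost in Prader-Willi syndrome.

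Because the seed guides target recognition, the mature sequences are printed 5′ to 3′ from RefSeq (GRCr8) with the seed in capitals. The table of counts gives names only. The name miR-344a-3p was matched to the RefSeq entry miR-344-3p of Mir344-1, and the other 6 names matched as they stand.
miR-344a-3p: uGAUCUAGccaaagccugaccgu
miR-344b-1-3p: gAUAUAACcaaagcccgacugu
miR-344b-3p: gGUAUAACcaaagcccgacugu
miR-344i: cUCUAGCCagggcuugacugca
miR-344b-5p: aGUCAGGCugcugguuauauuc
miR-344a-5p: uCAGGCUCcuggcuagauu
miR-344g: aGUCAGGCuccuggcaggaguc

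The 4 members have 4 different seeds. The 3p arms of the a and b branches are alike. Shifted by 1 base, miR-344a-3p and miR-344b-1-3p share 18 of 22 bases (81.8%), a count that takes in the seed. miR-344b-1-3p and miR-344b-3p share 21 of 22 bases, and the 1 difference, A2G counted from the 5′ end, falls in the seed. The 5p arm miR-344b-5p is the same sequence in Mir344b-1, Mir344b-2 and Mir344b-3, whereas RefSeq gives miR-344b-1-3p to Mir344b-1 alone and miR-344b-3p to the identical hairpins Mir344b-2 and Mir344b-3. A stretch of the Mir344a-2 hairpin matches miR-344a-3p but for C21U. The whole sequence of miR-344a-5p, which RefSeq gives to Mir344a-2, is also the start of the 5p strand it names for Mir344-1. The rule for reads that fit several names is not given in the sources used here, so the split between near-identical names is uncertain.

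The hairpins are shown to place both arms, which stand in capitals.
Mir344b-1: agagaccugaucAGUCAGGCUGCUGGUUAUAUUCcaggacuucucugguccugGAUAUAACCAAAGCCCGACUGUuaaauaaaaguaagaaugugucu
Mir344-1: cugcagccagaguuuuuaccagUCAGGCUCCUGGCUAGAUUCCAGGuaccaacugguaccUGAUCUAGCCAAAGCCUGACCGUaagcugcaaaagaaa

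Among the other names of the table with a RefSeq sequence, miR-410-3p, from the imprinted Dlk1-Dio3 region, has the seed of miR-344b-1-3p, and miR-484 has the seed of miR-344a-5p. The seed of miR-344b-5p is found again in the relative miR-344g. No other name with a sequence shares the seed of miR-344a-3p. Of the 706 annotated names of the table, 642 matched a sequence by name, and names without a sequence could not be searched.
miR-410-3p: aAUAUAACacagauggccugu
miR-484: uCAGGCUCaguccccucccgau

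In the brain, 3 members were read in all 24 libraries. miR-344b-1-3p had 92.6 ± 38.7 CPM over the 24 brain libraries (mean ± SD), miR-344a-3p 87.5 ± 51.6 and miR-344b-5p 50.3 ± 19.2. They ranked 186, 190 and 223 among the 861 names by mean CPM, in the upper part of that ranking. The fourth member, miR-344a-5p, which RefSeq gives to Mir344a-2, was read in 17 of 24 brain libraries with 54 counts in all, against 26783 counts of miR-344a-3p. Among the relatives, miR-344b-3p stood at 9.71 ± 6.76 CPM, miR-344i at 2.86 ± 1.49 CPM and miR-344g at 0.127 ± 0.19 CPM, the last with 30 counts in all. By mean, 3 names carried most of the family's reads in the brain.

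**Figure D1:**
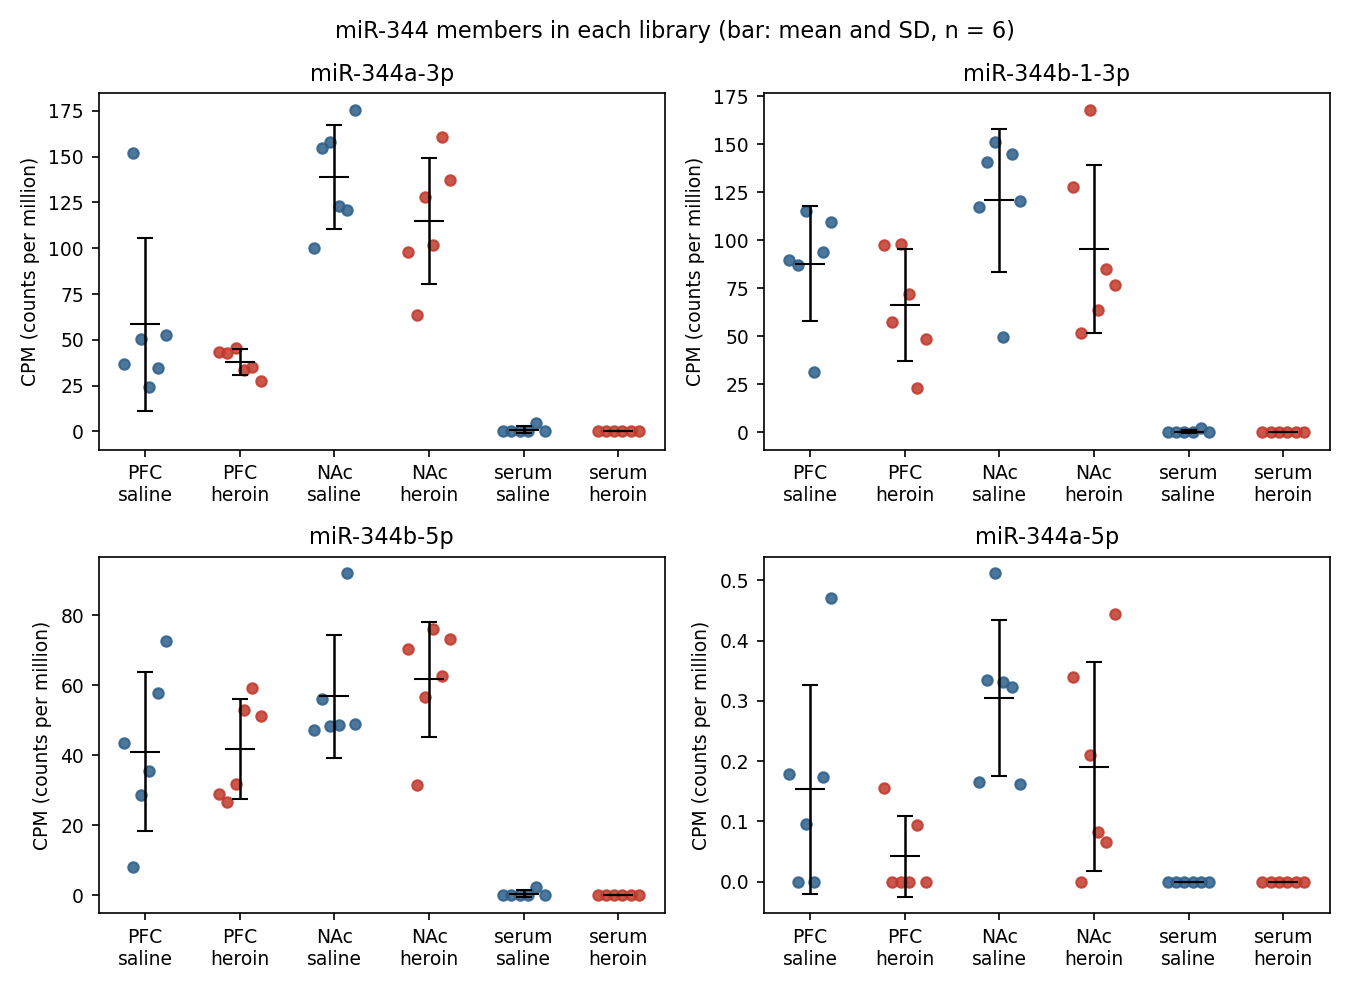
Level of each member (y axis, CPM, linear scale) in every library of the 6 groups of tissue and treatment; each point is 1 library, blue for saline and red for heroin, and the bars give the mean and SD of 6 libraries. miR-344a-3p was at 63.4 CPM or more in all NAc libraries and, except for saline library 8 at 152.1 CPM, below 53 CPM in the PFC, while serum held almost no reads of any member.

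In serum, the family gave 4 counts in 12 libraries. All 4 were in saline library 11, with 2 counts of miR-344a-3p and 1 each of miR-344b-1-3p and miR-344b-5p. That library also had the highest serum level of the neuronal miR-9a-5p, 3195 CPM against 38.11 to 1068 CPM in the others, and whether this bears on the miR-344 reads was not tested. In counts pooled over libraries, miR-344a-3p was 345.5 times higher in the brain than in serum, with an exact 95% binomial interval of 95.6 to 2853; these intervals and limits cover counting error only. For miR-344b-1-3p the ratio was 753.3 (135.2 to 29760) and for miR-344b-5p it was 406 (72.9 to 16040). With 0 serum counts, 3 counts over the group as the limit put miR-344b-3p at least 22.5-fold lower in serum than in the brain and miR-344i at least 7.26-fold lower. For miR-344a-5p and miR-344g the brain level lay below what serum could show at this depth. In the shallowest serum library a count of 0 allows up to 19.06 CPM. That lies below the lowest brain library of miR-344a-3p (24.1 CPM) and of miR-344b-1-3p (23.4 CPM). It lies above the lowest brain library of miR-344b-5p (7.88 CPM) and the brain means of miR-344a-5p and the relatives. For these, a serum library of that depth cannot be read against every brain library.

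Among the 3 members with enough reads, miR-344a-3p had the widest gap between the brain regions. In bulk tissue, fewer cells that make a miRNA and less of it per cell cannot be told apart. In saline rats it ranged from 100.1 to 175.6 CPM in the NAc (median 139) and from 24.1 to 152.1 CPM in the PFC (median 43.6). In heroin rats it ranged from 63.4 to 160.6 CPM in the NAc (median 115) and from 27.3 to 45.3 CPM in the PFC (median 38.9). The NAc and PFC libraries did not overlap in heroin rats. Such a gap with the NAc above the PFC was found for 0.862% of the 464 names tested there, and since the tissue levels were known when the list was made, nothing is read from it. In saline rats the groups overlapped through PFC library 8 alone, whose 152.1 CPM lay within the NAc range; the other 5 PFC libraries ended at 52.8 CPM. In saline rats, 4.93% of 467 names had all NAc libraries above all PFC libraries.

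The log2 fold difference of miR-344a-3p, NAc over PFC, was 1.29 ± 0.31 (SE, n = 6 per group) in saline rats and 1.62 ± 0.22 in heroin rats in edgeR. Ranked from the lowest, these values stood at 94.2% of the 467 and 97.6% of the 464 names tested, miR-344a-3p included. Without PFC saline libraries 8 and 12 the value in saline rats was 1.72. The other 2 members with enough reads showed smaller differences in the same direction. For miR-344b-1-3p they were 0.37 ± 0.33 and 0.57 ± 0.33 in saline and heroin rats, and for miR-344b-5p 0.30 ± 0.45 and 0.55 ± 0.33. The medians over the names tested were -0.09 and 0.00.

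miR-344b-1-3p overlapped widely between regions. Its saline libraries lay at 31.6 to 115.4 CPM in the PFC (median 91.6) and 49.8 to 151 CPM in the NAc (median 130.7). Its heroin libraries lay at 23.4 to 98.3 CPM in the PFC (median 64.7) and 51.9 to 168 CPM in the NAc (median 80.7). Library 10 was the lowest saline library in both regions, at 31.6 CPM in the PFC and 49.8 CPM in the NAc.

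The shared 5p arm miR-344b-5p also overlapped. In saline rats it was at 7.88 to 72.7 CPM in the PFC (median 39.6) and 47.2 to 92.1 CPM in the NAc (median 48.7). In heroin rats it was at 26.6 to 59.3 CPM in the PFC (median 41.4) and 31.4 to 76.2 CPM in the NAc (median 66.5). The lowest value, 7.88 CPM, belonged to PFC saline library 8, the library with the highest PFC level of miR-344a-3p.

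The relatives did not follow miR-344a-3p as a block. miR-344b-3p, from the hairpins Mir344b-2 and Mir344b-3, had a log2 fold difference of -0.88 ± 0.35 (NAc over PFC) in saline rats and -0.18 ± 0.22 in heroin rats, with the first at -0.37 without PFC saline libraries 8 and 12. Its libraries overlapped between regions in both treatments, where 1.93% of names in saline rats and 0.862% in heroin rats had all NAc libraries below all PFC libraries. miR-344i was at 0.81 ± 0.42 and 0.48 ± 0.31. For context, of the 12 names of a neuron-enriched list, 3 had positive NAc over PFC values in saline rats and 5 in heroin rats, with medians of -0.18 and -0.13. The order of the levels therefore differed by region. In the NAc miR-344a-3p (126.8 ± 32.5 CPM, n = 12) was followed by miR-344b-1-3p (108.1 ± 41), within their spread, and then by miR-344b-5p (59.3 ± 16.4). In the PFC miR-344b-1-3p (77 ± 30.3 CPM) came before miR-344a-3p (48.2 ± 33.8) and miR-344b-5p (41.4 ± 18.1), and the last of these differed from miR-344a-3p by less than their spread.

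As a share of all miR-344 counts of a library, miR-344a-3p took 25.6% ± 9.39 of the PFC total and 41.6% ± 6.85 of the NAc total (SD over 12 libraries). miR-344b-1-3p took 41.8% ± 11.1 and 34.5% ± 8.15, miR-344b-5p 25.2% ± 12.2 and 19.8% ± 5.25, and miR-344b-3p 6.09% ± 2.56 and 2.66% ± 1.11. In PFC saline library 8, miR-344a-3p took 52.8% and miR-344b-5p 2.74%, the highest and the lowest shares of these names in the PFC. That library was also the highest PFC library in the summed leukocyte markers miR-223-3p and miR-142-3p (17 CPM), muscle markers miR-1-3p and miR-133a-3p (147.5 CPM) and choroid plexus markers miR-204-5p and miR-34c-5p (558.5 CPM). The other PFC libraries reached at most 9.94, 69.2 and 504.5 CPM. Of these 6 markers, miR-223-3p was at 0 in 1 PFC library and the others in none. Their part in the result was not tested.

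**Figure D2:**
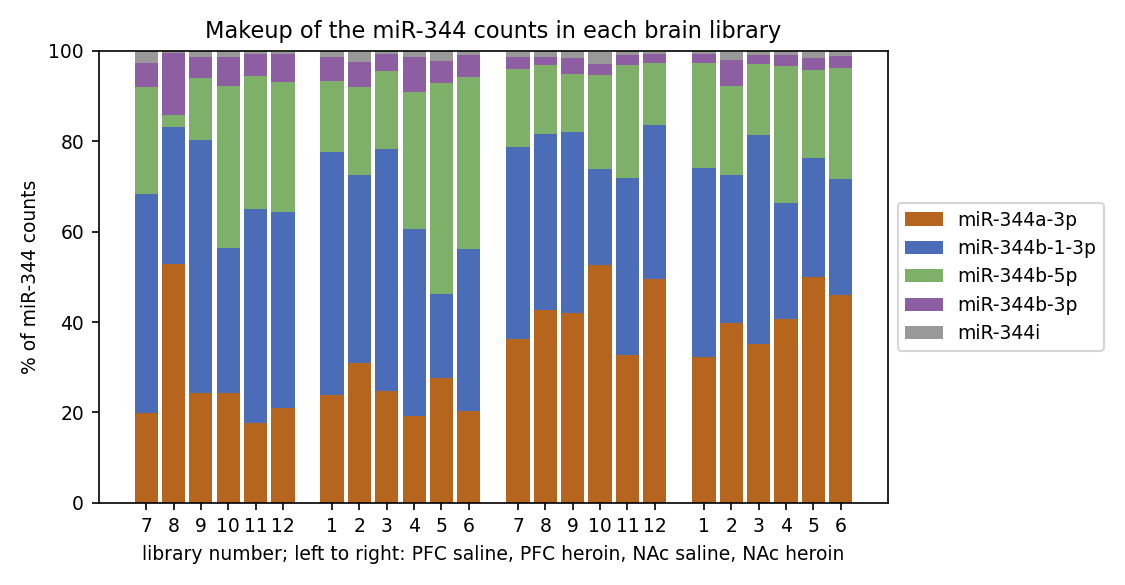
Share of the summed miR-344 counts (y axis, %) taken by each of 5 names in each of the 24 brain libraries, numbered as in the labels; the 2 rarest names are left out and take under 1%. miR-344a-3p takes a larger share in NAc libraries, and PFC saline library 8 stands out with 52.8% miR-344a-3p and 2.74% miR-344b-5p.

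Within a library, the ratio of miR-344b-1-3p to miR-344a-3p does not depend on scaling. Its lowest, median and highest values were 0.574, 2.11 and 2.7 in the PFC and 0.404, 0.864 and 1.31 in the NAc (n = 12 each). In the PFC, 10 libraries held more miR-344b-1-3p than miR-344a-3p, and the exceptions were saline library 8 and heroin library 5, at 0.574 and 0.666. This ratio was looked at after the values had been seen.

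Names from the 3p and 5p arms can be compared in the same way. In the a branch, 0 to 8 counts of miR-344a-5p per library stood against 146 to 3043 counts of miR-344a-3p. RefSeq gives these names to different hairpins, Mir344a-2 and Mir344-1. The 5p strand it names for Mir344-1 is not analysed here, but it begins with the whole sequence of miR-344a-5p. Reads of miR-344a-5p therefore fit both hairpins, and whether this ratio is the arm balance of 1 hairpin cannot be told. The b branch was nearer to balance: the ratio of miR-344b-1-3p to miR-344b-5p had a median of 1.84 in the PFC (0.394 to 11.1) and 1.74 in the NAc (0.839 to 3.13). Adding miR-344b-3p, the 3p strand of the other hairpins that give miR-344b-5p, brought the medians to 2.03 and 1.93, a sum added after the names had been seen. The spread was wider in the PFC, where heroin library 5 had the lowest ratio of miR-344b-1-3p to miR-344b-5p and saline library 8 the highest.

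No difference of these 3p to 5p ratios between heroin and saline exceeded the spread between libraries. The mean log2 ratio of miR-344b-1-3p to miR-344b-5p was 0.59 ± 1.18 after heroin and 1.27 ± 1.29 after saline in the PFC (SD, n = 6 per group, exact two-sided permutation test, p = 0.366). In the NAc it was 0.57 ± 0.64 after heroin and 1.05 ± 0.59 after saline (exact permutation p = 0.21). For miR-344a-3p to miR-344a-5p, with 0.5 added to each count, the difference of heroin minus saline was 0.55 in the PFC (exact permutation p = 0.481) and 0.52 in the NAc (exact permutation p = 0.301). These rest on the few 5p counts. Without PFC saline library 8 the PFC differences were -0.25 for miR-344b-1-3p to miR-344b-5p and 1.08 for miR-344a-3p to miR-344a-5p, and the second was 0.21 without PFC saline library 12. The p-values of these 4 tests are unadjusted, and the smallest such a test can give is 0.00216. Heroin and saline libraries overlapped in each of the 4 comparisons.

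**Figure D3:**
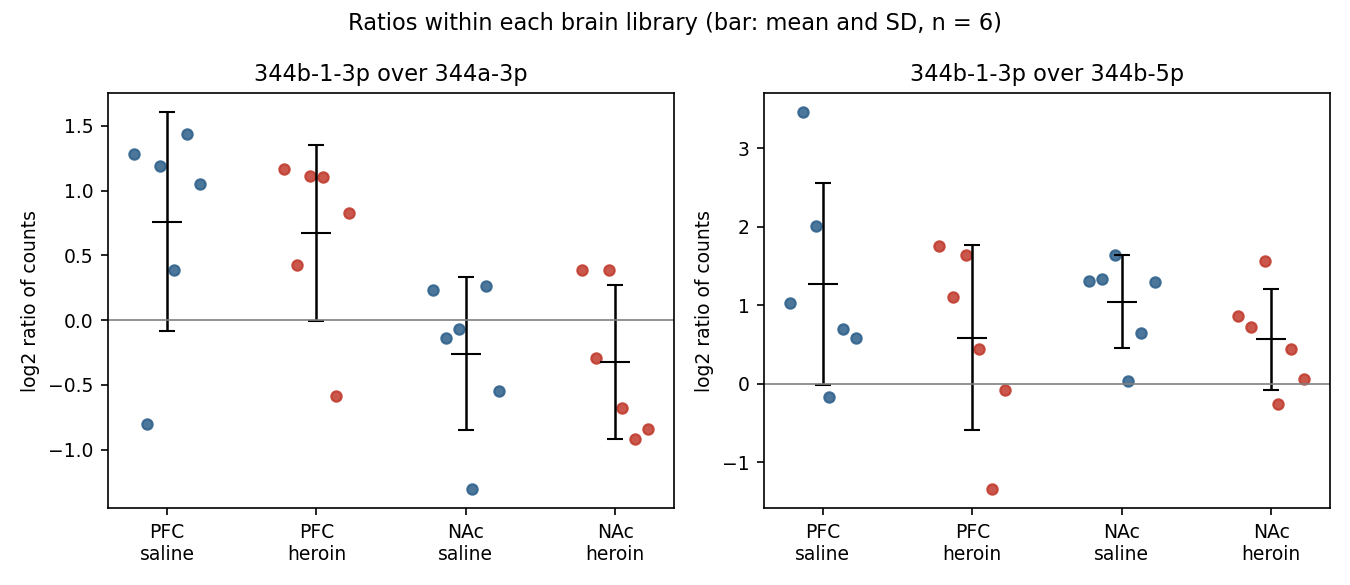
Log2 ratio of counts within each brain library (y axis) for miR-344b-1-3p over miR-344a-3p (left) and over miR-344b-5p (right), by group; points are libraries, bars the mean and SD of 6. On the left most PFC libraries lie above 0 and the NAc libraries around or below it; on the right heroin and saline libraries overlap in both regions.

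The design sets heroin against saline within each tissue. No miR-344 member passed the test in any tissue. In edgeR's quasi-likelihood test with Benjamini-Hochberg adjustment over all names, 0 of 3 members tested passed in the PFC and 0 of 3 in the NAc, where 0% of 455 and 0% of 480 names passed (16 and 30 names at an unadjusted p under 0.05, none of them a member). miR-344a-5p did not reach the count minimum in either region, and no member did in serum, where 0% of 229 names passed (11 at an unadjusted p under 0.05). DESeq2 and limma-voom also called 0 names in both brain regions. In serum, DESeq2 called 4 of 229 names, none of them a member, and limma-voom called 0.

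Mean levels of the 3p members were lower after heroin in both regions and those of miR-344b-5p were not, and none of these differences passed the test. miR-344a-3p was at 37.9 ± 7.04 CPM after heroin and 58.5 ± 47.1 CPM after saline in the PFC (mean ± SD, n = 6), a log2 fold change of -0.38 ± 0.32 (SE, edgeR adjusted p = 0.995). Without saline library 8 the log2 fold change was 0.01, and the other 5 saline libraries had 39.7 ± 11.9 CPM. In the NAc it was at 114.8 ± 34.2 against 138.7 ± 28.5 CPM, a log2 fold change of -0.12 ± 0.22 (edgeR adjusted p = 0.893), and 0.06 without heroin library 2.

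miR-344b-1-3p, the most abundant member of the family over the brain, was at 66.2 ± 29.3 CPM after heroin and 87.8 ± 29.8 CPM after saline in the PFC, a log2 fold change of -0.31 ± 0.35 (edgeR adjusted p = 0.995). In the NAc it was at 95.5 ± 43.9 against 120.7 ± 37.3 CPM (log2 fold change -0.20 ± 0.32, edgeR adjusted p = 0.889). Heroin and saline libraries overlapped in both regions. Without PFC heroin library 5 the PFC value was -0.11, and without NAc heroin library 2 the NAc value was -0.02.

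miR-344b-5p was at 41.7 ± 14.3 CPM after heroin and 41 ± 22.7 CPM after saline in the PFC (log2 fold change 0.12 ± 0.48, edgeR adjusted p = 0.995). In the NAc it was at 61.7 ± 16.5 against 56.8 ± 17.5 CPM (0.26 ± 0.29, edgeR adjusted p = 0.809). The highest NAc value, 92.1 CPM, was in saline library 11, and without that library the log2 fold change was 0.55 (edgeR adjusted p = 0.552). Without PFC saline library 8, that in the PFC was -0.06.

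Among the relatives, miR-344b-3p was at 8.49 ± 2.77 CPM after heroin and 14.9 ± 12.2 CPM after saline in the PFC (log2 fold change -0.55 ± 0.37), and at -0.15 without saline library 8. In the NAc its log2 fold change was 0.08 ± 0.22. miR-344i had values of 0.07 ± 0.43 in the PFC and -0.34 ± 0.29 in the NAc. Neither passed (edgeR adjusted p of 0.691 or more). The medians over all names tested were -0.05 (PFC) and -0.07 (NAc), and the neuron-enriched list had medians of 0.01 and 0.03, with 0 of 12 names passing in each region and 6 of 12 positive.

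**Figure D4:**
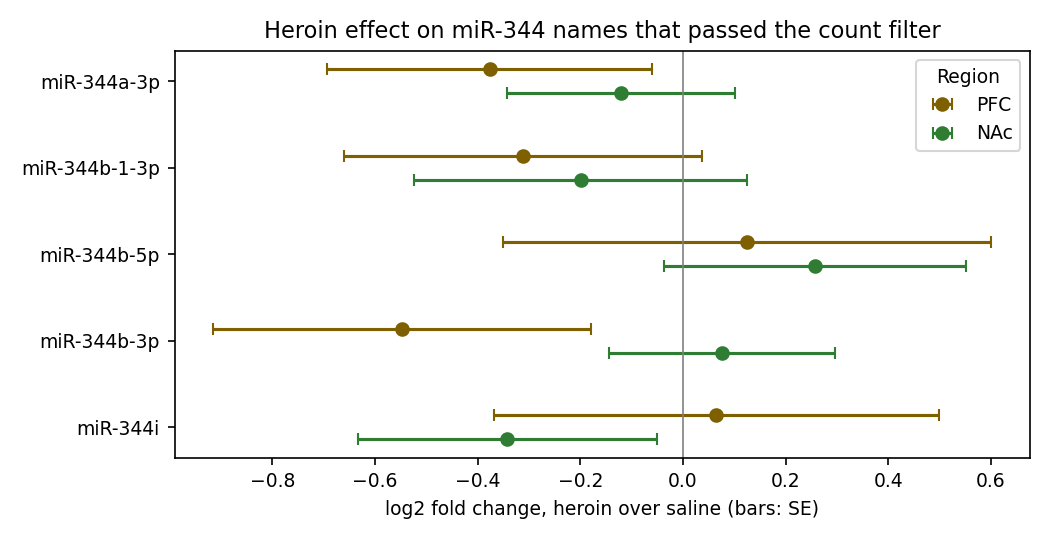
Log2 fold change of heroin over saline (x axis; bars, SE from the edgeR test; n = 6 per group) for the 5 miR-344 names that passed the count filter, in the PFC (brown) and NAc (green). Values run from -0.55 to 0.26 and none passed after adjustment.

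The heroin effects of the members were also compared between the regions. The difference of the log2 fold changes, NAc minus PFC, was 0.31 ± 0.39 for miR-344a-3p, 0.15 ± 0.49 for miR-344b-1-3p and 0.21 ± 0.59 for miR-344b-5p (SE, interaction term in edgeR, adjusted p = 0.848, 0.965 and 0.965). None of the 506 names tested passed (0%), and 19 had an unadjusted p under 0.05, none of them a member. Without PFC saline libraries 8 and 12 and PFC heroin library 5, the values were -0.14, -0.03 and 0.44 in the same order.

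Levels that moved with miR-344b-1-3p, the most abundant member, were looked up over the 24 brain libraries among the 324 names with a mean of at least 10 CPM. By Pearson's r of log2(CPM + 1), the 5 closest names were miR-92a-3p (0.81), miR-320-3p (0.69), miR-410-3p (0.68), miR-138-2-3p (0.68) and miR-92b-3p (0.68). Within the 12 PFC libraries their r was 0.90, 0.56, 0.72, 0.65 and 0.55, and within the 12 NAc libraries 0.58, 0.86, 0.43, 0.57 and 0.70 in that order. Without PFC saline libraries 8 and 12 the PFC values lay between 0.66 and 0.93. Over both regions the values also take in the difference between the regions, so these values are a description. Over the brain, the closest name within the family was miR-344a-3p (r = 0.55). Its r was 0.46 in the PFC (0.69 without saline library 8), where miR-344b-3p had 0.47, and 0.46 in the NAc. The other arm of its hairpin, miR-344b-5p, had r = 0.12, -0.20 and 0.28.

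miR-410-3p is thus the name that shares the seed of miR-344b-1-3p and is also among its 5 closest names by level. It was at 54.8 ± 32.9 CPM after saline and 35.9 ± 17.1 after heroin in the PFC (mean ± SD, n = 6), and at 86.9 ± 26 and 63.4 ± 19.5 CPM in the NAc. In serum it had no counts in heroin libraries and at most 7 CPM (median 0) in saline libraries, a difference that cannot be read at the depth of these libraries. Over the brain its mean was 60.2 CPM beside 92.6 CPM for miR-344b-1-3p, so the seed was carried by both names at levels of the same order. Among the names with a RefSeq sequence, the seed of miR-344a-5p was carried mostly by miR-484, at 3.18 CPM in the brain against 0.172 CPM.

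In the PFC, miR-344a-3p and miR-344b-5p went opposite ways across libraries (r = -0.76, n = 12), and miR-344a-3p and miR-344b-3p went together (0.87). PFC saline library 8 holds the highest miR-344a-3p and miR-344b-3p and the lowest miR-344b-5p of the PFC. Without it the values were -0.18 and 0.50 (n = 11), and without saline libraries 8 and 12 they were -0.56 and 0.31 (n = 10). In the NAc they were 0.30 and 0.03.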

How the data were processed

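The authors deposited read counts per mature miRNA name for 36 libraries, without pooling. The TPM values that the authors deposited beside them, per the file headers, equal the count over the library's total times 1e+06 to within a relative 4.9e-15, so they have no length term and are called CPM here. Per the submitters' processing notes, Bowtie was among the tools and rn6 the rat build, and the counting rule is not given in the sources used here. Inserts of 18 to 40 bp were sequenced, per the labels' protocols.

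Counts were tested with edgeR 4.0.16 (quasi-likelihood F test, TMM, filterByExpr with a minimum count of 10, Benjamini-Hochberg adjustment at 0.05) on all names, in R 4.3.3, and only miR-344 values are printed. The SE is the log2 fold change over the square root of F. Alternatives used DESeq2 1.42.0, limma 3.58.1, other scalings, no filter and left-out libraries. Within-library ratios had 0.5 added to each count. Scripts were tested on simulated data. Replicate pairs within groups differed beyond sampling noise (smallest chi-square per degree of freedom 46.2). The p-values measure only the spread between libraries. Members, lists and named miRNAs (all listed names, relatives, the 5 names most like the most abundant member, and seed sharers) were chosen with earlier results of these data known. No miR-344 name was among the 31 pairs of names with nearly repeated counts.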

Additional observations from a re-analysis of the deposited data

Results flagged for a closer look

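Within groups of 6 brain libraries, 7 values lay farther from the rest than Dixon's 95% limit of 0.625, among 40 sets checked. Chance flags about 1 in 20 of separate, normally spread sets. The sets here share counts, since ratios were checked beside the levels they are built from, so the flags are not all separate. In the PFC of saline rats, library 8 was highest for miR-344a-3p (152.1 CPM against 24.1 to 52.8) and for miR-344b-3p (39.1 CPM against 6.25 to 15.3), and its log2 ratio of miR-344b-3p to miR-344b-5p was 2.30 against -2.59 to -1.59 in the others. Library 10 was lowest for miR-344b-1-3p in saline rats, at 31.6 CPM in the PFC (others 87.3 to 115.4) and 49.8 CPM in the NAc (others 117.3 to 151). In the NAc of saline rats, library 9 was highest for miR-344b-3p (13.3 CPM against 5.64 to 8.19) and library 11 for miR-344b-5p (92.1 CPM against 47.2 to 56).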

How the results depend on the processing

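Of 387 values recomputed under alternatives, 370 were counted as unchanged and 17 changed sign, 8 of them on leaving out 1 library. Heroin effects and ratio differences were counted as unchanged when they kept their sign and their side of the threshold, and none crossed it. The NAc over PFC differences, which have no test here, were so counted if they kept sign and moved by less than the SD between libraries. Counts of members called for the heroin effects were included and stayed at 0. In serum no member was tested with the count filter on, so those counts could only be 0. For the heroin effects and their difference between regions, miR-344a-3p, miR-344b-1-3p and miR-344b-5p had no unadjusted p under 0.05 in any setting run. The member miR-344a-5p, tested only without the count filter, was not part of this tally. Scaling by library size alone moved the median over all names to -0.17 in the PFC and -0.22 in the NAc, from -0.05 and -0.07, and turned the heroin values of miR-344i in the PFC (-0.045) and miR-344b-3p in the NAc (-0.070). Without PFC saline libraries 8 and 12, miR-344a-3p was at 0.046 and miR-344i at -0.25 in the PFC; without these and PFC heroin library 5, the regional differences of the heroin effect were -0.14, -0.030 and 0.048 for miR-344a-3p, miR-344b-1-3p and miR-344i. That of miR-344b-5p was -0.060 in limma-voom.

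Leaving out 1 library at a time gave, in the PFC, -0.51 to 0.013 for miR-344a-3p, -0.061 to 0.34 for miR-344b-5p and -0.066 to 0.46 for miR-344i, and in the NAc -0.21 to 0.063 for miR-344a-3p and -0.013 to 0.22 for miR-344b-3p. The differences of the 3p to 5p ratios kept their sign: from 0.21 to 1.08 (PFC) and 0.23 to 0.76 (NAc) for miR-344a-3p to miR-344a-5p, and from -0.97 to -0.25 and -0.68 to -0.32 for miR-344b-1-3p to miR-344b-5p. With 1 added to each count the first were 0.29 and 0.35. The cause of these changes was not tested.

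Same-numbered PFC and NAc libraries deviated together in 10 of 12 numbers (r over 0.1 across 324 names), 7 of 12 correlated best with their own number, and the median r was 0.321 for the same number against -0.0604 for other numbers. These values lean towards pairing, but not every pair was over 0.1 and the labels do not say what a number marks, so the main tests have no block. With the number as a replicate block, the regional difference of the heroin effect of miR-344b-5p was -0.058 in limma-voom and 0.046 in edgeR, and the NAc over PFC difference of miR-344a-3p was 1.40 in saline and 1.58 in heroin rats. The block gave no call among the members for the regional difference of the heroin effect. Arm ratios in serum and for miR-344b-2-3p were not run. The relatives, the ratios with miR-344b-3p or miR-344a-3p, the correlations without PFC saline libraries and the correlation by library number were added after seeing the data. Depth limits serum, where 1 count in the shallowest library stands for 6.35 CPM.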

Other observations

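Over the 12 library numbers shared by the PFC and NAc, with treatment means removed, miR-344b-1-3p had Pearson's r = 0.682 between regions (permutation p = 0.0309, adjusted p = 0.543 over 306 names) and Spearman's rho = 0.804 (permutation p = 0.00569, adjusted p = 0.415). It ranked 9 of 306 by r, where the median was 0.211. Without the 2 numbers farthest from the PFC median, saline 10 and heroin 5, r was 0.714, with the treatment means of all numbers kept. miR-344b-1-3p did not pass the adjustment, nor did any other name (0 of 306). The values for miR-344b-5p and miR-344a-3p were r = 0.28 and 0.175. Within treatments, r for miR-344b-1-3p was 0.453 in heroin and 0.953 in saline numbers. Number 10 was the lowest saline number in both regions. Leaving out number 10 alone, with the treatment means taken anew, gave r = 0.441 over the 11 other numbers. Over the 5 other saline numbers r was 0.184. The relation in saline numbers thus leaned on number 10, while r over both treatments varied with the numbers left out. The labels do not say that a number marks 1 animal.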
